A study of Mus musculus with 6 samples.

Results

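Small leucine-rich proteoglycans (SLRPs) are secreted matrix proteins with a core of leucine-rich repeats, most of which carry chondroitin, dermatan or keratan sulfate chains. Versican is a large chondroitin sulfate proteoglycan of the hyaluronan-binding hyalectan family. Their messages were followed in 2 subsets of cancer-associated fibroblasts (CAFs), as a set of 10 genes selected by name, 9 SLRPs (Dcn, Bgn, Aspn, Lum, Fmod, Prelp, Omd, Ogn and Podn) and versican (Vcan), of the 49548 genes in the deposited table. All 10 were found. Omd had no count in any library, so 9 entered the test among 26402 genes, and 8 averaged at least 10 normalized counts over the 6 libraries.

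The cells came from colonic adenomas that azoxymethane and dextran sulfate sodium (AOM/DSS, a mutagen with repeated colitis) had induced in C57/BL6 mice carrying Col6a1-Cre and the Rosa26-mTmG reporter. In this reporter, Cre replaces membrane Tomato with GFP, so that GFP+ cells (Col6a1+ CAFs) had expressed the Cre at some time and Tomato+ cells (Col6a1- CAFs) had not. Both subsets therefore share genotype, strain and treatment, and both were sorted from digested adenomas as cells negative for CD45, EpCAM, CD31 and Ter119. The 3 libraries of each subset are pools of tumors from several mice, and the labels give no age. The Col6a1 driver marks PDGFRa-high fibroblasts and perivascular cells of the intestine, so Col6a1+ CAFs are a mixture by construction, and Col6a1- CAFs are what remains of the sort. P-values measure the spread between these pooled libraries, not that between single mice.

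SLRPs bind fibrillar collagens and regulate how fibrils assemble and space themselves, and several bind TGF-beta. Decorin and lumican are general products of fibroblasts, and soluble biglycan and decorin can signal through Toll-like and growth factor receptors. Versican loosens the pericellular matrix by binding hyaluronan and is cleaved by ADAMTS proteases. The question here was whether the proteoglycan messages of the tumor stroma divide between the subsets.

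Markers of the labelled cell type were present in both subsets, with fibroblast and mural markers higher in Col6a1+ CAFs. The summed level of 8 pan-fibroblast markers was 41754 to 44574 normalized counts in Col6a1+ and 8266 to 13959 in Col6a1- CAF libraries. Of these, 6 were higher at an adjusted p under 0.05 (limma), among them Col1a1 and Pdgfra. Vim and Dpt were not called, and Dpt overlapped between the subsets. The summed level of 10 mural markers such as Rgs5 and Notch3 was 42843 to 92163 against 1173 to 2207 (10 higher). That of 7 smooth muscle markers was 12471 to 25035 against 493 to 2423 (5 higher), and that of 8 telocyte markers 3067 to 4880 against 1367 to 1654 (4 higher). These lists share genes, with Pdgfrb also mural, Pdgfra also telocyte, and Des both mural and smooth muscle. The 8 markers of trophocytes and adventitial fibroblasts summed to 367 to 1036 against 1510 to 2102 (2 lower). Despite the sort against EpCAM, 10 epithelial markers summed to 5722 to 6365 in Col6a1+ and 19976 to 33607 in Col6a1- CAF libraries (7 lower). The 10 immune markers summed to 52 to 73 against 316 to 550 (1 lower), with Ptprc, which encodes CD45, at 0 to 2 and 3 to 8. The 8 endothelial markers summed to 122 to 259 against 312 to 550. The other lists, erythroid (110 to 1713 against 281 to 482), glial (55 to 73 against 29 to 76) and proliferation (228 to 482 against 310 to 454), overlapped between the subsets. No endothelial, erythroid, glial or proliferation marker was called (limma), and 3 endothelial and 1 proliferation marker were lower and 1 glial marker higher at an unadjusted p under 0.05. The part of these cell mixtures in the proteoglycan values below was not tested. In bulk libraries, fewer cells of a type and less RNA per cell cannot be told apart.

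Per length of gene model, decorin led the set and biglycan came next in all 6 libraries. The deposited per-base values, read here as normalized counts per kb of gene model, averaged 3152 in Col6a1+ and 1767 in Col6a1- CAFs for Dcn, and 673 and 254 for Bgn. After these, the order differed between the subsets. In Col6a1+ CAFs it ran Aspn (mean 230), Lum (133), Ogn (103), Prelp (60.9), Vcan (29.3), Podn (15.9) and Fmod (0.72). In Col6a1- CAFs it ran Lum (66.6), Podn (59.3), Prelp (21.4), Aspn (21.2), Vcan (17.8), Ogn (16.0) and Fmod (0.40). Podn was thus eighth in each Col6a1+ library, and the third or the fourth in each Col6a1- library. Neighbours in these orders were often within each other's range. In Col6a1+ CAFs the libraries of Aspn and Lum, Lum and Ogn, Ogn and Prelp, and Vcan and Podn overlapped, and in Col6a1- CAFs so did those of Lum and Podn and of every pair among Prelp, Aspn, Vcan and Ogn. The assay reads the 3′ ends of transcripts, so division by length lowers the genes with long models relative to Dcn (1761 bases). Vcan (8273 bases) and Bgn (7423 bases) are such genes, and the order by count differed. Mean counts of Dcn and Bgn were 5551 and 4995 in Col6a1+ CAFs, and Bgn was the higher in replicate 2 (5889 and 5694). After these came Aspn (504), Ogn (286) and Lum (254). In Col6a1- CAFs, Dcn (3111) and Bgn (1887) were followed by Podn (287), Vcan (147) and Lum (127).

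**Figure D1:**
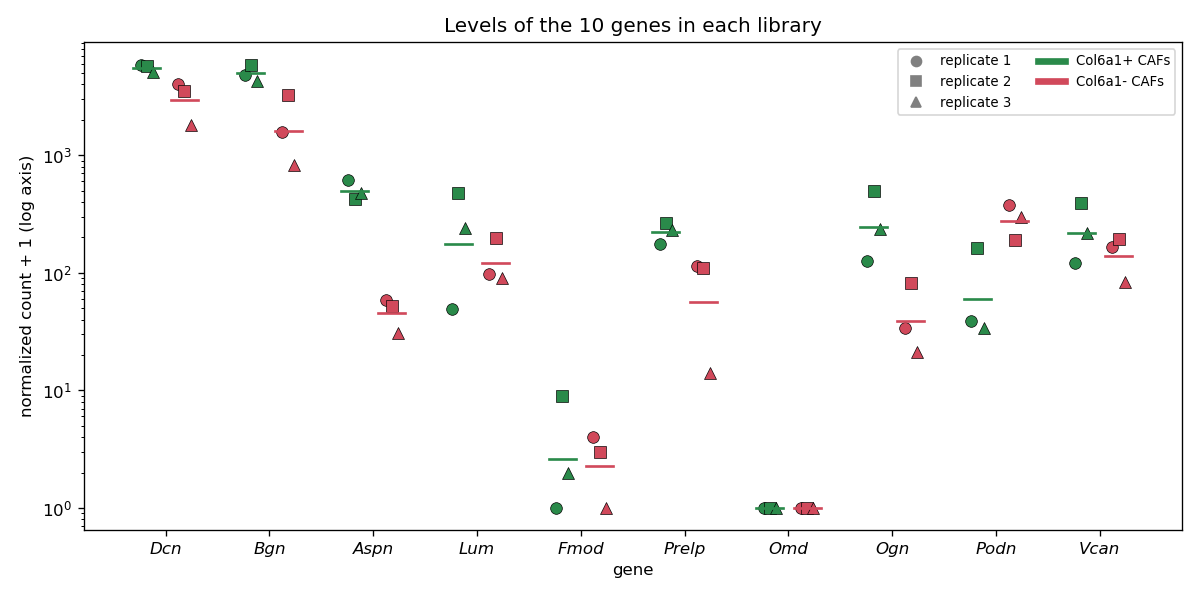
Normalized counts plus 1 (log axis) of the 10 genes in each library, with green for Col6a1+ and red for Col6a1- CAFs, marker shapes for replicate numbers and bars at the mean of the log values. The subsets do not overlap for Dcn, Bgn, Aspn, Prelp and Ogn, where Col6a1+ CAFs lie above, nor for Podn, where they lie below.

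Of the 9 genes tested, Aspn and Ogn were called higher in Col6a1+ CAFs at an adjusted p under 0.05 (limma with Benjamini-Hochberg adjustment over 26402 genes), and none was called lower. Among all genes tested, 2.66% were called higher and 1.96% lower. At an unadjusted p under 0.05, 5 of the 9 were higher and 1 was lower, beside 6.63% and 9.4% of all genes. Limma-voom called 3 higher (Aspn, Bgn and Ogn) and 1 lower (Podn), beside 2.92% and 3.02%. The libraries of the subsets did not overlap for 5 genes with Col6a1+ CAFs above and for 1 (Podn) with Col6a1+ CAFs below, while 7.91% of all genes tested lay wholly above and 11.6% wholly below. Among the more abundant genes (mean of at least 10), to which 8 of the 10 belong, these shares were 14.2% and 17.6%. For the 9 genes the median of the log2 fold changes was 0.91, and for all genes tested it was -0.27. Equal library sums and quantile normalization moved the latter to -0.31 and -0.11.

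The fits above were unpaired. In a further fit, libraries with the same replicate number were read as pairs, which the labels do not state. The paired fit changes the calls. With replicate number entered as a block, Aspn had the smallest adjusted p of the members, 0.0612, and no gene of the 26402 passed, although 1851 were higher and 2567 lower at an unadjusted p under 0.05 (limma). The same paired fit over the 13515 more abundant genes called Aspn, Bgn and Ogn higher and Podn lower, beside 7.26% and 6.44% of genes. This paired fit over fewer genes was added after seeing the data.

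**Figure D2:**
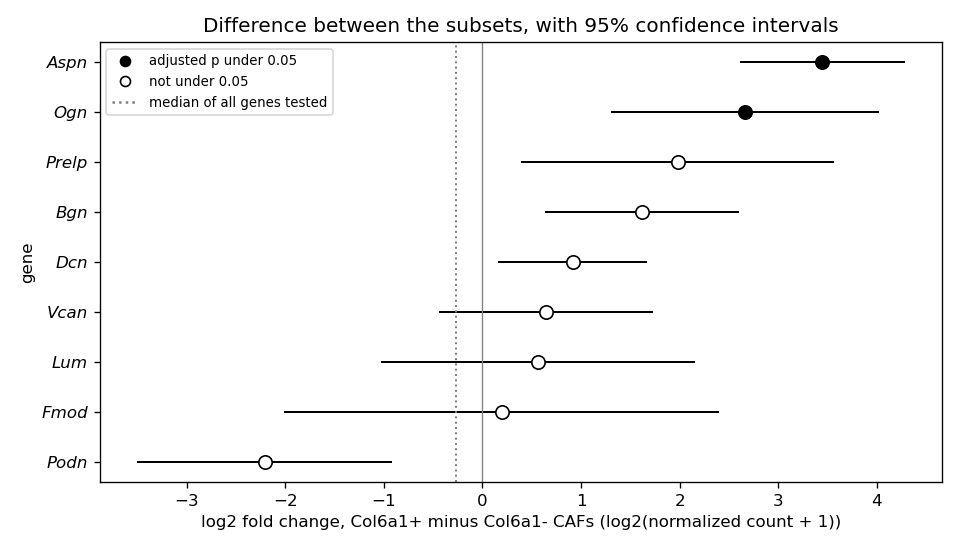
Log2 fold change of each tested gene, Col6a1+ minus Col6a1- CAFs, on the log2(normalized count + 1) scale, with 95% confidence intervals as lines (limma, 3 libraries each) and filled circles for an adjusted p under 0.05. Aspn (3.45) and Ogn (2.66) are filled, 8 of the 9 estimates lie above 0, and Podn (-2.21) lies below, with the dotted line at the median of all genes (-0.27).

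The promoters of Aspn, Ogn, Bgn and Podn, chosen after their values were seen, are shown for their motif matches and the range of their base composition. RefSeq windows of GRCm38.p6 (the build of mm10) held 8 of the 10 genes, with no entry for Dcn and Lum and with 2 windows for Podn. Each sequence is the 250 bases before the RefSeq start, 5′ to 3′ on the gene's strand, with capitals for matches on either strand to the TATA box (TATAAA) in Aspn and Ogn and to the GC box (GGGCGG) in Bgn and Podn. The coordinates are chr13:49544193-49544442 for Aspn, chr13:49607765-49608014 for Ogn, chrX:73483351-73483600 for Bgn (all plus strand) and chr4:108031955-108032204 for Podn (minus strand), which lies inside the deposited gene model.
Aspn: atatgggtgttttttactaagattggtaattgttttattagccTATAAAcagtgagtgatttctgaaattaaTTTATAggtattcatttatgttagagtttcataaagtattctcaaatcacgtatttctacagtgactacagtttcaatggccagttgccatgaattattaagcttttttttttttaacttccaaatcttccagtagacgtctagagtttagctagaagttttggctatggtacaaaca
Ogn: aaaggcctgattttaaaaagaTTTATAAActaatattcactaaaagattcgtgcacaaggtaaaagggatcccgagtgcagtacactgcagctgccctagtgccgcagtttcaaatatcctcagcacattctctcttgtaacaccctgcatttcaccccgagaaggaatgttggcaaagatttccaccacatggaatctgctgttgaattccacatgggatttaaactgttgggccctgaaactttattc
Bgn: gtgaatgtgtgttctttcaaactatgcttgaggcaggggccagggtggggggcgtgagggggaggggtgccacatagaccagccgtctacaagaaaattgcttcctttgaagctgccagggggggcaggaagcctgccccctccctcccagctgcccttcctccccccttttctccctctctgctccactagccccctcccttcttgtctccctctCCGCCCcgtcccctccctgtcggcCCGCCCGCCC
Podn: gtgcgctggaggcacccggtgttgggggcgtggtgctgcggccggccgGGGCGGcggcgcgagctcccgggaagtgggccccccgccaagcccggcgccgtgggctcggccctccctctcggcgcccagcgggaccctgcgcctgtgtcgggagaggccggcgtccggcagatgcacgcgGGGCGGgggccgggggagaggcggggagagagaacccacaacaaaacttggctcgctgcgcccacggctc

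The Aspn window was 30.0% G+C, at percentile 1.47 of 32851 RefSeq windows of this length, and its 2 TATAAA matches began 207 and 178 bases before the start. The Ogn window was 42.0% G+C with 2 overlapping TATAAA matches, 229 and 227 bases before the start. This window ends at 49608014 and the deposited Ogn model starts at 49608071, so these distances hold for the RefSeq start only. TATAAA was in 12.4% of all windows, and whether these matches act as TATA boxes was not tested. The Podn window was at the other end, with 78.0% G+C (percentile 97.9), 32 CpG dinucleotides against a median of 6 over all windows, and 2 GC boxes. The Bgn window was 64.4% G+C with 3 GC boxes, of which 2 overlapped, and the Vcan window 62.4% with 2, while GGGCGG was in 32.7% of all windows. Omd (38.4%), Fmod (51.2%), Prelp (55.6%) and the other Podn window (64.0%) had no match to either motif. Searches of the same windows on both strands for the AP-1 site TGANTCA (6.75% of all windows) and for the CArG box (1.47%) found no match in any member.

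**Figure D3:**
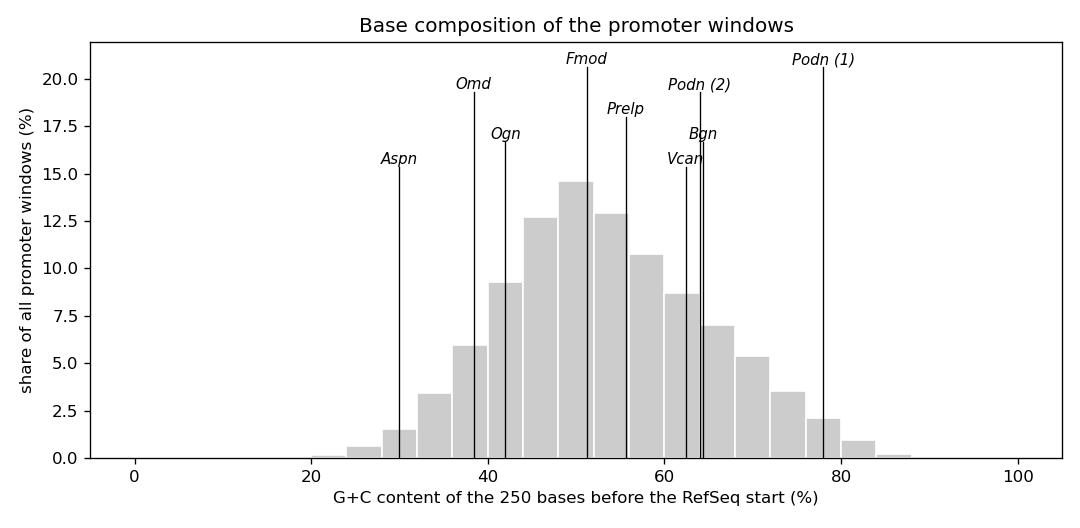
G+C content (%) of the promoter windows of the members (vertical lines, height without meaning) over the distribution of 32851 RefSeq windows (bars, share of windows in %). Aspn (30.0%), Omd (38.4%) and Ogn (42.0%) lie left of the median of 52.4%, while Vcan, Bgn and both Podn windows lie right of it.

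Decorin, biglycan and asporin make up class I. Decorin and biglycan carry chondroitin or dermatan sulfate, and asporin, which binds collagen and TGF-beta, has a stretch of aspartate residues and no such chain. The promoter window of Aspn (ENSMUSG00000021388, mm10 chromosome 13, 49544443 to 49567565, plus strand) was the richest in A+T among the 8 members with a window. Aspn had 619, 419 and 474 normalized counts in Col6a1+ CAF replicates 1 to 3 and 58, 51 and 30 in Col6a1- CAF replicates 1 to 3. Every Col6a1+ library was far above every Col6a1- library, and the means were 504 ± 103 and 46.3 ± 14.6 (SD, n = 3). The log2 fold change was 3.45 (SE 0.37, adjusted p = 0.0013, limma). The adjusted p was 0.0612 with the replicate block and 0.0015 with the block over the more abundant genes. Leaving out Col6a1- CAF replicate 1 gave an adjusted p of 0.0503 and a log2 fold change of 3.63, and the other 5 fits that left out a library kept the call.

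Biglycan, the closest relative of decorin and an X-linked gene, came in at 4830, 5889 and 4267 normalized counts in Col6a1+ CAFs and 1579, 3266 and 816 in Col6a1- CAFs (ENSMUSG00000031375, chromosome X, 73483602 to 73495933, plus strand). The subsets did not overlap, and Col6a1- CAF replicate 2 was the closest to the Col6a1+ libraries. The means were 4995 ± 824 and 1887 ± 1254 (SD, n = 3). Its log2 fold change of 1.62 (SE 0.44) missed the threshold at an adjusted p of 0.0695 (limma, 95% confidence interval 0.64 to 2.59). The adjusted p was 0.118 with the replicate block and 0.0148 with the block over the more abundant genes, and 4 of 18 fits called the gene.

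Decorin, which binds collagen I fibrils and TGF-beta, had the highest mean count of the set in both subsets, with 5834, 5694 and 5125 in Col6a1+ and 4044, 3482 and 1808 in Col6a1- CAFs (Dcn, ENSMUSG00000019929, chromosome 10, 97479500 to 97518162, plus strand). The Col6a1+ libraries lay close together and above the others, and Col6a1- CAF replicate 3 was the lowest. The means of 5551 ± 376 and 3111 ± 1163 (SD, n = 3) gave a log2 fold change of 0.91 (SE 0.33, adjusted p = 0.185, limma, 95% confidence interval 0.17 to 1.65). None of 18 fits called Dcn, with adjusted p-values of 0.0644 to 0.722, and the estimate without Col6a1- CAF replicate 3 was 0.56.

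Within a library, the log2 ratio of Bgn to Dcn was -0.27, 0.05 and -0.26 in Col6a1+ and -1.36, -0.09 and -1.15 in Col6a1- CAF replicates 1 to 3. Replicate 2 had the highest ratio in both subsets. The difference of 0.70 had p = 0.3 in an exact two-sided permutation test, where 3 libraries against 3 cannot go below 0.1, and p = 0.25 in an exact test that permuted within replicate pairs. The ratio was higher in Col6a1+ CAFs in 3 of 3 pairs, and 0.25 is the smallest two-sided p that 3 pairs allow. The log2 ratio of Aspn to Dcn, chosen after its values were seen and not tested, was -3.23, -3.76 and -3.43 in Col6a1+ and -6.10, -6.07 and -5.87 in Col6a1- CAFs. Asporin message relative to decorin message thus did not overlap between the subsets.

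Class II holds the SLRPs that typically carry keratan sulfate or polylactosamine chains. Lumican, which spaces collagen fibrils, had 48, 476 and 237 normalized counts in Col6a1+ and 96, 196 and 89 in Col6a1- CAFs (Lum, ENSMUSG00000036446, chromosome 10, 97565501 to 97572703, plus strand). Col6a1+ CAF replicates 1 and 2 were the lowest and the highest of all 6 libraries, so the subsets overlapped. Col6a1+ CAF replicate 1 was also the library with the fewest genes detected (14530), and its part in the low Lum value was not tested. The log2 fold change was 0.56 (SE 0.71, adjusted p = 0.656, limma), and its 95% confidence interval ran from -1.01 to 2.14. The estimate was -0.15 without Col6a1+ CAF replicate 2 and 1.49 without Col6a1+ CAF replicate 1 (adjusted p = 0.157, limma).

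Prelp, which encodes a protein that links basement membranes to connective tissue through heparan sulfate and collagen, had 176, 266 and 229 normalized counts in Col6a1+ and 114, 109 and 13 in Col6a1- CAFs (ENSMUSG00000041577, chromosome 1, 133910304 to 133921414, minus strand). All Col6a1+ libraries lay above the others, and Col6a1- CAF replicate 3 stood well below its own group. The means were 224 ± 45.2 and 78.7 ± 56.9 (SD, n = 3), for a log2 fold change of 1.98 (SE 0.71, adjusted p = 0.175, limma, 95% confidence interval 0.40 to 3.56). Without Col6a1- CAF replicate 3 it was 0.98, and none of 18 fits called the gene.

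Fibromodulin (Fmod, ENSMUSG00000041559, chromosome 1, 134037254 to 134048277, plus strand), another regulator of collagen fibrils, was near the detection floor. It had 0, 8 and 1 normalized counts in Col6a1+ and 3, 2 and 0 in Col6a1- CAFs, and no difference was detectable at this depth (log2 fold change 0.19, SE 0.99, adjusted p = 0.930, limma). Osteomodulin, known as a bone and tooth SLRP, was at 0 in all 6 libraries (Omd, ENSMUSG00000048368, chromosome 13, 49582766 to 49592609, plus strand), which allows up to 3 counts in each and covers counting error only.

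Class III and class V were each represented by 1 gene, and they differed in direction. Osteoglycin, also called mimecan, had 124, 497 and 236 normalized counts in Col6a1+ and 33, 80 and 20 in Col6a1- CAFs (Ogn, ENSMUSG00000021390, chromosome 13, 49608071 to 49624500, plus strand). The lowest Col6a1+ library was above the highest Col6a1- library, and replicate 2 was the highest in both subsets. The means were 286 ± 191 and 44.3 ± 31.6 (SD, n = 3). The log2 fold change was 2.66 (SE 0.61, adjusted p = 0.0344, limma, 95% confidence interval 1.31 to 4.02). This call rested on all 6 libraries, since it was lost whichever library was left out, with adjusted p-values of 0.0581 to 0.235 and estimates of 2.15 to 3.20. The adjusted p was 0.0779 with the replicate block and 0.00628 with the block over the more abundant genes.

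Podocan is a collagen-binding SLRP described in smooth muscle and kidney. Its gene was the member with more message in every Col6a1- library than in any Col6a1+ library. The first promoter window of this gene was the richest in G+C among the 8 members with a window. Podn (ENSMUSG00000028600, chromosome 4, 108014791 to 108096445, minus strand) had 38, 161 and 33 normalized counts in Col6a1+ and 379, 189 and 294 in Col6a1- CAFs. The subsets did not overlap, but replicate 2 gave the highest Col6a1+ and the lowest Col6a1- value, 161 and 189. The means were 77.3 ± 72.5 and 287 ± 95.2 (SD, n = 3), and the log2 fold change of -2.21 (SE 0.58, 95% confidence interval -3.49 to -0.93) had an adjusted p of 0.0595 (limma). The adjusted p was 0.228 with the replicate block and 0.0450 with the block over the more abundant genes. Without Col6a1+ CAF replicate 2 it was 0.0283 at a log2 fold change of -2.93. The other fits that left out a library did not call the gene, with adjusted p-values of 0.184 to 0.299 (limma) and estimates of -2.48 to -1.80. Of 18 fits, 5 called Podn. The gene model overlaps that of Scp2, which codes for a peroxisomal sterol carrier, on the same strand, without a shared exon base in GENCODE M21. Scp2 had 93, 167 and 140 normalized counts in Col6a1+ and 250, 314 and 414 in Col6a1- CAFs, so its libraries did not overlap either and lay in the same direction. The part of these reads in the Podn values was not tested.

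Versican had 119, 390 and 218 normalized counts in Col6a1+ and 164, 194 and 83 in Col6a1- CAFs (Vcan, ENSMUSG00000021614, chromosome 13, 89655312 to 89742509, minus strand). The subsets overlapped, and in replicate pair 1 the Col6a1- library was the higher of the pair. The log2 fold change was 0.64 (SE 0.49, adjusted p = 0.594, limma) with a 95% confidence interval of -0.43 to 1.72. The estimate was 0.22 without Col6a1+ CAF replicate 2, 0.28 without Col6a1- CAF replicate 3 and 1.07 without Col6a1+ CAF replicate 1.

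Several members were highest or lowest in the same library. Among the 8 more abundant members, Col6a1+ CAF replicate 2 was the highest of its group for 6, and Col6a1- CAF replicate 3 was the lowest of its group for 7. Col6a1+ CAF replicate 1 was the lowest for 4 (Lum, Prelp, Ogn and Vcan). The shares of all genes were not counted. Col6a1- CAF replicate 3 also had its group's lowest sums of pan-fibroblast (8266), mural (1173), smooth muscle (493), trophocyte, immune and proliferation markers. It was not the lowest for epithelial, endothelial, erythroid, glial or telocyte markers. Over the 6 libraries, which share these levels and the difference between subsets, the highest Pearson correlations of log2 levels were those of Dcn with Prelp (0.97), Bgn with Ogn (0.93) and Bgn with Prelp (0.91). Lum went most closely with Vcan (0.88), and its correlation with Dcn, the neighbouring gene, was 0.26. Podn had negative or near-zero values with all others, the lowest with Aspn (-0.84).

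Several SLRP genes stand in clusters, and not all genes of a cluster shared a level. On chromosome 13, Ecm2, Aspn, Omd and Ogn lie in this order on the plus strand within 120 kb. Ecm2 (240, 139 and 133 against 8, 20 and 4 normalized counts), Aspn and Ogn were all called higher in Col6a1+ CAFs, with Omd between them at 0. These genes lie inside the gene model of Cenpp on the opposite strand, which had 0 to 15 counts. On chromosome 10, Dcn and Lum are followed by Kera, at 0 in all libraries, and Epyc, with 1 count in 1 library. On chromosome 1, Optc had 0 to 5 counts beside Prelp and Fmod, and Prelp shares 350 exon bases with the antisense gene Gm15851, at 0 in all libraries. The same-strand or opposite-strand origin of reads could not be checked, since the strand setting of the counting is not given in the sources used here.

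Other genes of proteoglycan assembly, binding and turnover were examined as 10 lists of 112 genes, of which 108 were tested. Of these, 26 were called higher in Col6a1+ CAFs and 2 lower (limma, adjusted p under 0.05), beside 2.66% and 1.96% of all genes tested. The counts of each list below stand beside these same shares. At an unadjusted p under 0.05 (limma), the shares of all genes were 6.63% higher and 9.4% lower. The median of their log2 fold changes was 0.69, beside -0.27 for all genes. With the replicate block none passed (limma, smallest adjusted p 0.0612). At an unadjusted p under 0.05 in this fit, 49 were higher and 9 lower, beside 1851 and 2567 of the 26402 genes. With the block over the more abundant genes, 31 were higher and 2 lower, beside 7.26% and 6.44% of genes.

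**Figure D4:**
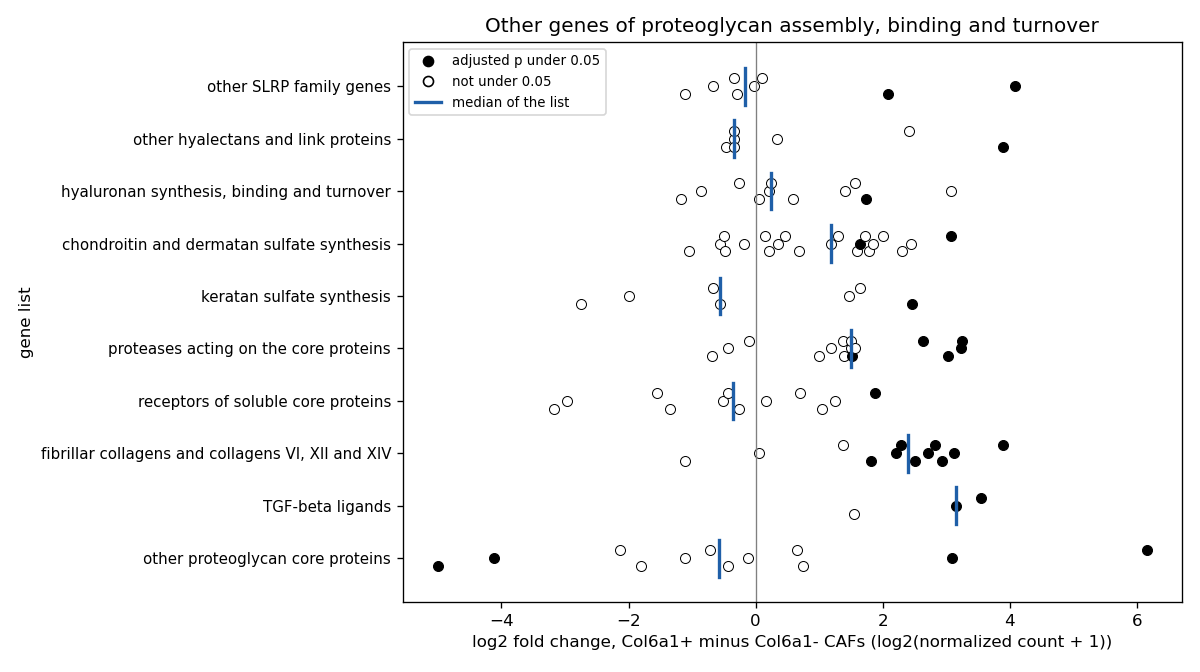
Log2 fold change, Col6a1+ minus Col6a1- CAFs, of each tested gene of the 10 lists (circles, filled at an adjusted p under 0.05) with the median of each list as a blue line. The collagens (median 2.39) and the TGF-beta ligands (3.15) lie to the right, and the lists of receptors (-0.35) and of other core proteins (-0.58) straddle 0.

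Among 8 other SLRP genes tested, 2 were called higher, with a median of -0.16. Ecm2, a matrix protein with leucine-rich repeats encoded next to Aspn, had a log2 fold change of 4.07 (SE 0.62, adjusted p = 0.00553, limma). Podnl1, the paralog of Podn, had 93, 129 and 128 against 26, 21 and 34 normalized counts, a log2 fold change of 2.08 (adjusted p = 0.0245, limma) and thus the opposite sign to Podn. The remaining SLRPs, Kera, Epyc, Optc, Chad, Chadl, Nyx and Tsku, had at most 17 counts in any library.

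Of the 7 other hyalectans and link proteins, 1 was called higher, and their median was -0.33. Aggrecan (Acan) had 11, 16 and 15 normalized counts in Col6a1+ CAFs and 0 in all Col6a1- CAFs, which is at least 4.67-fold higher against a floor of 3 counts per library (adjusted p = 0.0310, limma). Of 11 genes of hyaluronan synthesis, binding and turnover, the receptor gene Cd44 was called higher (592, 645 and 710 against 165, 187 and 234 normalized counts, log2 fold change 1.74, adjusted p = 0.00771, limma), and the median of the list was 0.24.

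The enzymes that build the sugar chains were read as a list for each kind of chain. Of 21 tested genes of chondroitin and dermatan sulfate synthesis, 2 were called higher and none lower (10 were higher and 1 lower at an unadjusted p under 0.05), with a median of 1.18. They were the chain polymerase genes Chsy3 (82, 55 and 35 against 9, 6 and 3, log2 fold change 3.07, adjusted p = 0.0392, limma) and Chpf (536, 470 and 365 against 130, 222 and 104, log2 fold change 1.64, adjusted p = 0.0285). Of 7 genes of keratan sulfate synthesis, the sulfotransferase gene Chst1 was called higher, with 613, 1015 and 690 against 106, 233 and 101 normalized counts (log2 fold change 2.47, adjusted p = 0.00613, limma), beside a median of -0.56. At an unadjusted p under 0.05, 3 genes of this list were higher and 2 lower.

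Of 15 tested proteases and enhancers that process or degrade the core proteins, 5 were called higher, and the median was 1.49. The 4 with the largest log2 fold changes were proteases of the ADAMTS family, several of whose members cleave versican and aggrecan. Adamts1 stood at 1227, 1221 and 1226 against 154, 155 and 141 normalized counts (log2 fold change 3.02, adjusted p = 4.94e-04, limma). Adamts9 had a log2 fold change of 3.24 and Adamts15 of 2.64. Adamts4 had 305, 1567 and 1985 against 63, 180 and 98 (log2 fold change 3.23, adjusted p = 0.0193, limma). Adamts5, by contrast, had 9, 30 and 56 against 17, 54 and 21, which overlapped (chosen after its values were seen).

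Of 12 genes for receptors and co-receptors that soluble SLRPs engage, 1 was called higher and the median was -0.35. It was Itgb1, the beta-1 integrin gene, at 1725, 2890 and 5387 against 834, 738 and 869 normalized counts (log2 fold change 1.88, adjusted p = 0.0208, limma). The Toll-like receptor genes, named after their values were seen, were not called, with Tlr2 at 0, 18 and 17 against 48, 50 and 65 and Tlr4 at 109, 63 and 39 against 73, 55 and 48.

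Of the 12 collagen genes whose fibrils or filaments SLRPs bind, 9 were called higher in Col6a1+ CAFs, with a median of 2.39. The largest log2 fold changes were those of Col5a3 (3.89), Col6a3 (3.12), Col6a2 (2.93) and Col6a1 (2.82). Col6a1, whose regulatory sequence drives the Cre, had 861, 1287 and 1941 against 182, 321 and 102 normalized counts. Of the 3 TGF-beta ligand genes, Tgfb2 (1643, 1207 and 1366 against 96, 130 and 135, log2 fold change 3.54) and Tgfb3 (3.15) were called higher.

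The 12 other proteoglycan core genes tested went both ways, with 2 higher, 2 lower and a median of -0.58. Cspg4, which encodes NG2 and is itself a mural marker, was at 1339, 849 and 1430 against 17, 20 and 11 normalized counts (log2 fold change 6.15). Col18a1, the gene of a basement membrane collagen with heparan sulfate chains, had a log2 fold change of 3.09. Spock2, which encodes testican-2, was at 300, 66 and 149 against 6033, 1260 and 2103 (log2 fold change -4.12, adjusted p = 0.00507, limma). Ptprz1, which encodes a receptor phosphatase that carries chondroitin sulfate, was at 0, 3 and 1 against 87, 35 and 81, at least 22.6-fold lower against a floor of 3 counts per library.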

How the data were processed

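The libraries were made with the QuantSeq 3′ kit and sequenced on an Ion Proton. Per the labels and the study's methods, the authors mapped reads with TopHat2 and Bowtie2 to mm10, made gene counts and scaled these with DESeq size factors. The deposited values are log2(normalized count + 1), which are whole counts in 100% of values (tolerance 1e-06), and a signal per base of gene model by the authors, used here per kb. The deposited fold changes, p-values and false discovery rates of the authors' own comparison were not used. The annotation release and the strand setting are not given in the sources used here, and 6 of 10 members have the bounds of GENCODE M21.

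The log2 values were tested as deposited with limma 3.58.1 in R 4.3.3 (2 groups of 3 libraries, trended eBayes, with 6.48 prior and 4 residual df) over 26402 genes whose normalized counts sum to 1 or more. Fold changes carry the pseudocount of 1 and understate low genes. P-values were adjusted by Benjamini-Hochberg, and called means an adjusted p under 0.05. Summed normalized counts, which carry the authors' scaling, were 3039152 to 3425249 per library. Col6a1+ CAF replicate 1 held 14530 genes with at least 1 count and the others 18770 to 20511. Python 3.11.15, NumPy 2.4.6, pandas 2.3.3, SciPy 1.17.1 and Matplotlib 3.10.9 served for the rest. The test was checked on simulated data, where it recovered 42 of 100 changes of 4-fold and 93 of 100 changes of 8-fold. A gene that was not called can therefore still differ by 4-fold. Recovery was not split by count level or by spread between libraries. The shares thus do not give the chance of a call for scarce or variable genes, such as Fmod and Lum.

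Members and lists were chosen with earlier results of these data known. All 10 members are named, with up to 4 called genes of largest change per list. Deviations of same-numbered libraries over 13515 genes correlated at 0.245, 0.125 and 0.144, against -0.245 to 0.150 for other pairs. These ranges overlap, so the correlations do not settle the pairing. The study describes 3 samples, each a pool of tumors, so the numbers were read as pairs where a replicate block or pairs are named. The main fit, which gave the calls and the list counts, was unpaired. The alternatives were other scalings (equal sums, quantile), filters, pseudocounts of 0.1 and 10, limma-voom, array weights, the replicate block, an unadjusted criterion and leaving out each library.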

Additional observations from a re-analysis of the deposited data

How the results depend on the processing

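Counts below are genes called higher and lower in Col6a1+ CAFs, of all genes (703 and 517), of the 10 members (2 and 0) and of the 112 related genes (26 and 2). With no filter they were 21 and 7, 0 and 0, and 4 and 0. With the replicate block as pairing they were 0 and 0 in each set. The block over genes with a mean of at least 10, added after seeing the data, gave 981 and 871, 3 and 1, and 31 and 2. Calling genes at log2 fold changes beyond 1 in either direction and p under 0.05 before adjustment gave 1607 and 2273, 4 and 1, and 44 and 7. A pseudocount of 0.1 gave 336 lower genes and 1 member higher, array quality weights 969 lower genes, and limma-voom 798 lower genes and 1 member lower. Equal library sums called 1 member lower, and at least 10 counts in every library called 1 member and 1 related gene lower.

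Leaving out 1 library gave 11 to 453 higher and 1 to 442 lower genes, 0 to 1 members higher and 0 to 1 lower, and 3 to 21 related genes higher and 0 to 2 lower, the fewest without Col6a1- CAF replicate 1 (11 and 1 of all genes). Those fits tested the genes with at least 1 count in the 5 libraries left. The cause of these changes was not tested, apart from the number of genes or libraries that each alternative changes by construction.

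Among the members, 3 estimates changed sign, that of Lum to -0.15 without Col6a1+ CAF replicate 2 (range -0.15 to 1.49 over the libraries left out), and that of Fmod to -0.69 without the same library and to -0.40 without Col6a1- CAF replicate 3 (range -0.69 to 0.89). The ratio of Bgn to Dcn kept its direction, with differences of 0.46 to 1.09 when a library was left out. Depth limits Fmod and Omd, which were at or near the floor of 3 counts.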

Other observations

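For each member averaging 50 or more normalized counts, the gene with the most similar log2 levels over the 6 libraries was looked up among 8429 genes of at least that mean. Such a search over few libraries returns a close match for any pattern, so the values are descriptions. Aspn was nearest to Tmtc1 (Pearson r 0.9997, with 506, 288 and 362 normalized counts in Col6a1+ and 22, 19 and 10 in Col6a1- CAFs). Ogn was nearest to Tcf21 (0.999), a mesenchymal transcription factor gene with 150, 294 and 208 against 68, 111 and 52. Dcn was nearest to Bmp4 (0.997), a ligand gene with 1352, 1338 and 1166 against 671, 545 and 192. The nearest genes were Gbf1 for Bgn (0.994), Snhg4 for Podn (0.994), AU020206 and Ptprm for Lum and Vcan (0.992 each), and Gm6644 for Prelp (0.989).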
